A study of Mus musculus with 8 samples.

Results

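Runx1 binding was set against Ezh2 binding in EML_C1 cells, a mouse haematopoietic progenitor line grown in stem cell factor. The members were the 4 libraries with an antibody against Runx1 or Ezh2, 2 replicates each, of the 8 libraries in the series; the other libraries are 2 of H3K27me3, the histone mark that Ezh2 sets, and 2 inputs. Per the labels, all libraries came from cells of strain C57BL/6 at passages 4 to 5, and no genotype or treatment is named, so the groups differ by antibody. Chromatin for Runx1 and for Ezh2 was fixed with DSG, a protein crosslinker, and then with formaldehyde, chromatin for H3K27me3 with formaldehyde alone, and 1 input library served Runx1 and Ezh2 together. Nothing in the labels ties the replicates to different cultures, so the spread between them may be technical. Expression was not measured in these files, so the identity of the line could not be checked against marker genes.

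Runx1 is a DNA-binding transcription factor that, with its partner Cbfb, recognises a short motif and is required for the formation of blood stem cells and for lymphoid development. Ezh2 is the catalytic subunit of Polycomb repressive complex 2, which trimethylates histone H3 at lysine 27 and keeps developmental genes silent. In mammals this complex has no sequence motif of its own and is found mostly at CpG-rich gene starts. The series belongs to a study of joint Runx1 and Ezh2 mutations in early thymic progenitor leukaemia, and its design asks where both proteins and the mark are found in EML_C1 chromatin.

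Sequences of 4 gene starts that carry both antibodies are printed as examples and were not chosen as typical. They are the first 4, by the strength of both antibodies, among the genes named here whose annotated start is the outer end of the gene and whose Runx1 summits, the positions of highest signal, lie within the sequence. Each runs from 250 bases before to 50 after the start, on the strand of the gene, and comes from RefSeq on GRCm38.p6. Capitals mark the stretch between the summits of the 2 Runx1 replicates with 10 bases either side.
Spsb1 (chr4:149954957-149955256, minus strand): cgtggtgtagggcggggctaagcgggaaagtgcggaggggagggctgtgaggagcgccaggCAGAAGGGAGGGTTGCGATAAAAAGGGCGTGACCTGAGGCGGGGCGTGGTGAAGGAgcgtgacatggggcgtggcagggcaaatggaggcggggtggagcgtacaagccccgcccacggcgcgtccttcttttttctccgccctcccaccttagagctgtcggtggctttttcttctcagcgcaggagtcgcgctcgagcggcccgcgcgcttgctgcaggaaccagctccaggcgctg
Myo10 (chr15:25622300-25622599, plus strand): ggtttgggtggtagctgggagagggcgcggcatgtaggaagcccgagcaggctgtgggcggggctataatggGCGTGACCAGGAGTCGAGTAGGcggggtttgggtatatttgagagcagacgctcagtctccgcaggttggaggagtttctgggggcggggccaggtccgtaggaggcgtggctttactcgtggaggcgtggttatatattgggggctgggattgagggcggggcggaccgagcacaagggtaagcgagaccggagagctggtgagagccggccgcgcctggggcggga
Cmtm4 (chr8:104395758-104396057, minus strand): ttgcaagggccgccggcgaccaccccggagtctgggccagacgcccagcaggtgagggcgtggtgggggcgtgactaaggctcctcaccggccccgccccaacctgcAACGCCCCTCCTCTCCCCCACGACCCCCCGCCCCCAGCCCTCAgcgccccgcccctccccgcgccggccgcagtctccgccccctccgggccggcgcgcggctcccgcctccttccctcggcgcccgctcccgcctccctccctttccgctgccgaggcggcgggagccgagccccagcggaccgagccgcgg
Id3 (chr4:136143572-136143871, plus strand): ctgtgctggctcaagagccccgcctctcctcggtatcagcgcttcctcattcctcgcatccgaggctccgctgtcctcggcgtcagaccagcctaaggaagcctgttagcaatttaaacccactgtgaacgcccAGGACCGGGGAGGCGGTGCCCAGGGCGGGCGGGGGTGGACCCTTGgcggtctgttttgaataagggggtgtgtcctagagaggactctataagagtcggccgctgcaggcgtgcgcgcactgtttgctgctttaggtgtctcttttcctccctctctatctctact
All 4 are rich in CpG, with 28, 23, 38 and 19 CpG dinucleotides and a GC content of 66.3%, 64.7%, 79.7% and 60.0% in the order printed. The Runx1 summits lie before the start, and the Ezh2 summits beyond the printed bases, between 165 and 705 bp into the gene. None of the 4 holds TGTGGT, a core of the RUNX motif, or its reverse complement ACCACA, nor TGCGGT or ACCGCA, a second form that was added after the data were seen. Other forms of the motif were not searched for, so these sequences are not shown to lack a RUNX site.

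The deposited lists held 64059 and 66153 Runx1 peaks in replicates 1 and 2, against 178354 and 159007 Ezh2 peaks. Each peak comes with a fold enrichment over background, which is a value of the authors' peak caller, and with a summit, the position of its highest signal. Runx1 folds were higher in general, with list medians of 3.11 and 3.60 in replicates 1 and 2, against 2.50 and 2.40 for Ezh2. A higher fold of one antibody therefore does not show that more of its protein was bound. The weakest peaks had a p between 0.0493 and 0.0499, so the lists hold many weak peaks. Peaks whose q did not exceed 0.01 made up 60.0% and 69.3% of the Runx1 lists but 20.2% and 14.1% of the Ezh2 lists. Read depth is unknown. Peaks of the 2 replicates of an antibody were merged where they overlapped, and a region was kept when both replicates contributed, which gave 44026 Runx1 regions and 65316 Ezh2 regions. Regions of the 2 antibodies that overlapped by at least 1 bp are called shared and the others separate.

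Most Runx1 and Ezh2 regions lay apart. Of 44026 Runx1 regions 1837, or 4.17%, touched an Ezh2 region, and 1800 of 65316 Ezh2 regions, or 2.76%, touched a Runx1 region. Nearly all pairs were simple: 1771 of the shared Runx1 regions touched 1 Ezh2 region, and 1706 of the shared Ezh2 regions touched 1 Runx1 region. The median distance from a Runx1 summit to the nearest Ezh2 summit was 58098 bp over all Runx1 regions, and from an Ezh2 summit to the nearest Runx1 summit it was 27022.5 bp. Within 1 kb of a summit of the other antibody lay 5.05% of Runx1 summits and 3.74% of Ezh2 summits. On the 19 autosomes the shared percentage of Runx1 regions ran between 3.05% on chromosome 13 and 5.78% on chromosome 4. For Ezh2 regions it ran between 1.78% on chromosome 9 and 4.22% on chromosome 17. Chromosome X held 109 Ezh2 regions, of which 20, or 18.3%, were shared. Without Ezh2 replicate 2, so with the peaks of Ezh2 replicate 1 alone, 6.79% of Runx1 regions and 1.73% of Ezh2 regions were shared; without Ezh2 replicate 1 the Ezh2 percentage was 1.49%, and without Runx1 replicate 2 it was 4.63%. With single lists of both antibodies, 5.09% to 8.44% of Runx1 regions and 2.13% to 3.04% of Ezh2 regions were shared. Both antibodies used the same input library and the same fixation, so joint binding and a defect of that input that yields peaks in both lists cannot be told apart here. The cells were a population, so a shared region does not show that both proteins sat on one DNA molecule.

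How often the antibodies met differed with the strength of the Ezh2 peak. In the highest of 10 equal classes of Ezh2 regions by fold, between 3.44 and 83.9, 684 of 6532 or 10.5% touched Runx1, against 1.26% in the fifth class and 3.43% in the lowest. For Runx1 the corresponding shares were closer together, with 5.77% in the highest class, 3.63% in the fifth and 5.56% in the lowest. When only peaks reaching a q of 1e-05 were kept for both antibodies, 24.8% of Ezh2 regions touched Runx1, while 2.03% of Runx1 regions touched Ezh2. Across the 1837 shared Runx1 regions, which share an input and are not independent, the Runx1 fold and the Ezh2 fold had a Spearman correlation of -0.021.

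Shared regions were stronger than separate ones for Ezh2 but not in both replicates for Runx1. For Ezh2 the median fold was 3.30 in shared and 2.63 in separate regions of replicate 1, and 2.79 in shared and 2.58 in separate regions of replicate 2, which are log2 ratios of 0.33 and 0.11. On the mean fold of both replicates the log2 ratio was 0.19, and leaving out any 1 of the 4 libraries brought it to between 0.061 and 0.15, with the lowest value without Ezh2 replicate 2; with peaks reaching a q of 1e-05 it was 0.055. The median Runx1 fold was 4.38 in shared and 4.25 in separate regions of replicate 1, and 4.78 in shared and 5.17 in separate regions of replicate 2, so its log2 ratios of 0.045 and -0.11 differed in sign. Shared Ezh2 regions were also wider, with a median of 849.5 bp against 465 bp in separate ones, and the part of width in the sharing was not tested. For Runx1 the medians were 453 bp in shared and 425 bp in separate regions.

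The summits of the antibodies were offset from each other within shared regions. The median distance between the strongest Runx1 summit and the strongest Ezh2 summit was 191 bp, with quartiles of 75 and 368 bp, and with the 10000 strongest peaks of each list it was 290 bp. Over the 4 pairings of a Runx1 with an Ezh2 replicate, the medians in these regions were 182, 198, 187 and 204 bp. The positional error was smaller. In the same regions the summits of the 2 Runx1 replicates lay 22 bp apart at the median, and those of the 2 Ezh2 replicates 70 bp apart. All 4 pairings of unlike antibodies thus lay above both distances between replicates of one antibody. The margin was smaller in other sets. Summits of the 2 Ezh2 replicates lay 100 bp apart at the median in separate Ezh2 regions. With single lists in place of merged regions, the medians between unlike antibodies were 114, 117, 132 and 137 bp. Summits within 50 bp were found in 320 shared Runx1 regions, or 17.4%, and more than 400 bp separated them in 408, or 22.2%. Where the Ezh2 region was under 1 kb wide the median distance was 146 bp (998 regions), and where it was 1 kb or wider it was 259 bp (839 regions).

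**Figure D1:**
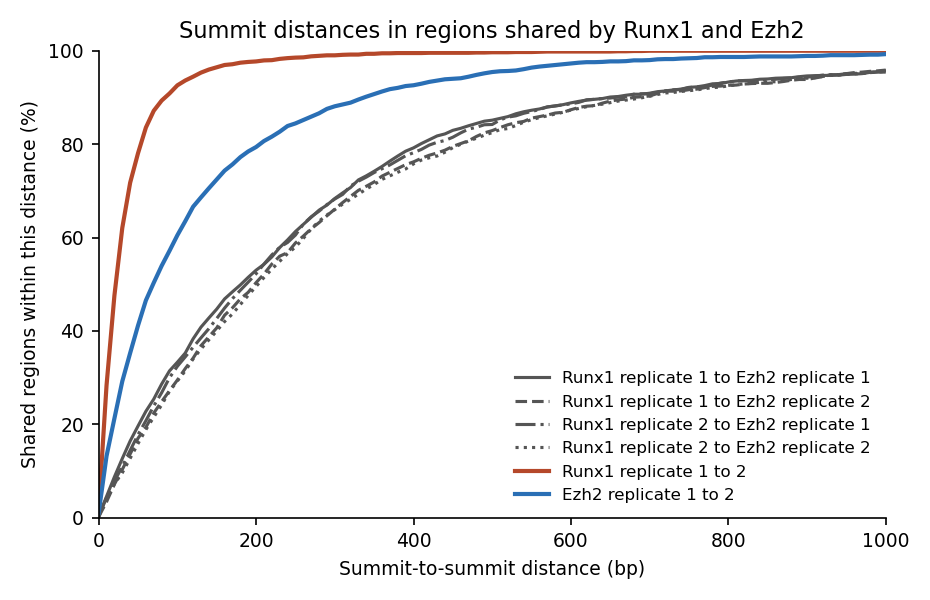
Cumulative percentage of shared regions (vertical axis) with summits within a given distance in bp (horizontal axis). Grey lines are the 4 pairings of a Runx1 with an Ezh2 replicate, with medians between 182 and 204 bp; the red and blue lines are the 2 replicates of Runx1 and of Ezh2, with medians of 22 and 70 bp.

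Regions with summits close together differed somewhat from those with summits far apart. Of the 320 regions with summits within 50 bp, 32.8% had their centre at a gene end, and their median Runx1 folds were 3.60 and 3.82 in replicates 1 and 2. Of the 408 regions with summits more than 400 bp apart, 46.6% were at gene ends, and the median Runx1 folds were 5.22 and 6.05. The Ezh2 folds were 3.37 and 2.79 where summits were close and 4.06 and 3.39 where they were far apart. These are the 2 outer classes of distance. In the classes between them the folds showed no steady order, and with summits more than 100 and up to 200 bp apart the Runx1 folds were 3.58 and 4.29 and the Ezh2 folds 3.11 and 2.58.

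H3K27me3, which had no part in the choice of regions, set shared Runx1 regions apart from separate ones. Of all Runx1 regions 6.54% touched an H3K27me3 region found in both replicates of that mark, and of all Ezh2 regions 90.0% did. Among shared Runx1 regions 1250 of 1837, or 68.0%, were marked, against 1630 of 42189, or 3.86%, of the separate ones. Seen from the mark, 43.4% of the 2880 marked Runx1 regions were shared with Ezh2, against 1.43% of the 41146 unmarked ones. For Ezh2 the difference ran the other way. Of shared Ezh2 regions 72.2% were marked, against 90.5% of separate ones, and 7.70% of the 6506 unmarked Ezh2 regions touched Runx1, against 2.21% of the 58810 marked ones. Each shared Runx1 region touches an Ezh2 region by definition, so its marked percentage has to be read beside the 90.0% of all Ezh2 regions. When only H3K27me3 peaks reaching a q of 0.01 were kept, the marked percentage was 14.6% of shared and 0.0972% of separate Runx1 regions, so both levels rest on the weak peaks of that list. The marked percentages of Ezh2 regions were not recomputed with these stricter peaks, so their direction is known for all mark peaks only. Without Runx1 replicate 2, 7.41% of separate Runx1 regions were marked, and with the 10000 strongest Runx1 and Ezh2 peaks 2.41% were.

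Gene ends held a larger part of the shared regions. A gene end is either of the 2 outer coordinates of a protein-coding gene, and a region was placed there when its centre lay within 1 kb. Of shared Runx1 regions 783, or 42.6%, were at gene ends, against 21.3% of separate ones, and for Ezh2 the percentages were 41.6% and 5.74%. At gene ends 8.01% of Runx1 regions and 17.1% of Ezh2 regions were shared, against 3.08% and 1.73% away from them. In the peaks of a single replicate of either antibody with both of the other, which carry more weak peaks, between 29.2% and 37.0% of shared regions were at gene ends, and with the 10000 strongest peaks of each list 70.5% were. With single lists of both antibodies, between 22.3% and 29.3% were.

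**Figure D2:**
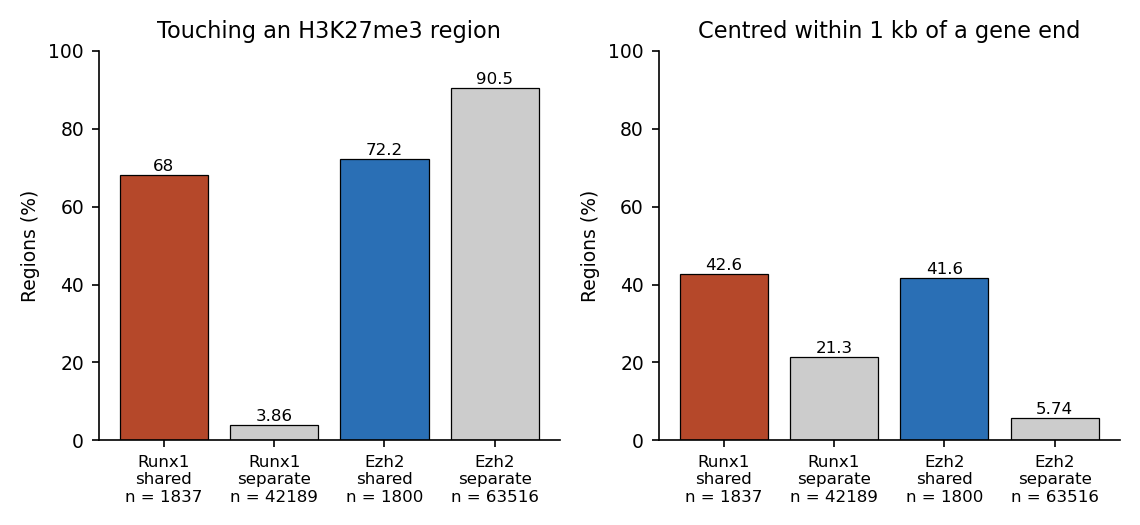
Percentage of regions (vertical axis) that touch an H3K27me3 region (left) or are centred within 1 kb of a gene end (right), for shared and separate regions of Runx1 and of Ezh2. Shared Runx1 regions carried the mark in 68.0% and separate ones in 3.86%, and in both antibodies shared regions were more often at gene ends.

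The shared regions fell into 4 groups by place and mark, of which the marked regions at gene ends had the highest Ezh2 folds in both replicates. Marked regions at gene ends numbered 501, with median Ezh2 folds of 5.79 and 4.06 in replicates 1 and 2. Unmarked ones at gene ends numbered 282, with Ezh2 folds of 2.82 and 2.28. Their Runx1 folds were 5.41 and 5.42 where marked, against 6.38 and 6.66 where unmarked. Away from gene ends the antibodies met in 749 marked and 305 unmarked regions, where the median Runx1 folds were 3.68 and 4.23 in marked and 4.33 and 4.82 in unmarked regions. The Ezh2 folds there were 3.28 and 2.83 in marked and 2.80 and 2.46 in unmarked regions, so the unmarked groups at and away from gene ends had similar Ezh2 folds. The median summit distance was 231 bp at gene ends and 163.5 bp away from them. Of the 1054 shared regions away from gene ends, 55.1% lay inside a protein-coding gene, close to the 56.6% of separate Runx1 regions away from gene ends.

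Of the shared regions away from gene ends, the strongest by the geometric mean of both folds lay inside Dmwd on chromosome 7 (19077358 to 19078501), 1818 bp from a gene end. Its Runx1 folds were 80.6 and 100.8 in replicates 1 and 2 and its Ezh2 folds 16.6 and 12.3, with summits 1266 bp apart in an Ezh2 region of 3531 bp. A region on chromosome 6 (51178050 to 51179288), 44288 bp from the nearest gene end, had Runx1 folds of 177 and 150.2, against Ezh2 folds of 3.62 and 3.22. The next lay inside Iffo2 on chromosome 4 (139573882 to 139575058), with Runx1 folds of 84.9 and 59.8 and Ezh2 folds of 7.18 and 5.41. In each of the 5 strongest regions Runx1 had the higher fold in both replicates. The closest summits among the 5 strongest were found inside Fbxo43 on chromosome 15 (36164579 to 36165338), 36 bp apart, and on chromosome 13 (58471450 to 58472362), 60757 bp from the nearest gene end at Rmi1, 6 bp apart. On chromosome 13 Runx1 folds were 43.2 and 48.8 and Ezh2 folds 9.16 and 6.08, without H3K27me3, while each of the other 4 regions touched the mark.

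For genes, an antibody was called at an end when the window of 1 kb either side held a peak in both of its replicates. Of 21887 protein-coding genes 45.3% had Runx1 and 18.4% had Ezh2. The antibodies met at the same end of 973 genes, which is 4.45% of all genes, and only at opposite ends of 172, or 0.786%. Both together are 1145 genes, or 5.23%, of which 85.0% had them at the same end. Among peaks reaching a q of 0.01 the same-end genes numbered 624 and the opposite-end genes 63. The 1145 were 11.6% of the 9910 genes with Runx1 and 28.4% of the 4034 genes with Ezh2, where 45.3% of all genes had Runx1. Runx1 alone was found at 40.0% of genes, Ezh2 alone at 13.2% and neither at 41.5%. In 829 of the 973 genes a shared region lay in a window of the gene, and the 973 genes carried 889 distinct Runx1 summits, since close neighbours can share an end.

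H3K27me3 was called at an end of 30.6% of all genes. It was called in 68.3% of genes with both antibodies at the same end and in 91.3% of those with both only at opposite ends. With Runx1 alone it was called in 3.61% of genes, with Ezh2 alone in 95.3% and with neither in 30.8%.

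The direction of transcription was known for 17492 of these genes, from the RefSeq table of gene starts, so their starts could be told from their other ends. Starts carried both antibodies far more often than the other ends. At the start Runx1 was called in 43.3% of genes, Ezh2 in 14.3%, and both in 724, or 4.14%. At the other end Runx1 was called in 8.57%, Ezh2 in 7.57%, and both in 68, or 0.389%. Of starts with Ezh2 28.9% had Runx1, below the 43.3% of all starts, and of other ends with Ezh2 5.14% had it, below 8.57%. In the list of opposite ends with known direction, 56 genes had Runx1 at the start and Ezh2 at the other end, and 77 had Runx1 at the other end and Ezh2 at the start.

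H3K27me3 was called at the start of 469 of the 724 genes with both antibodies there, or 64.8%. Starts with Runx1 alone carried the mark in 1.20% of cases and starts with Ezh2 alone in 93.0%. Starts with both thus stood between the separate groups, nearer to those with Ezh2.

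At starts with both antibodies, Runx1 sat on the start and Ezh2 inside the gene. Where a start held several peaks of an antibody, its strongest was used. The median Runx1 summit lay at -2.5 bp in replicate 1 and -6.5 bp in replicate 2, where negative values are upstream of the start. The median Ezh2 summit lay at 211 and 202 bp, inside the gene. Within 100 bp of the start lay 45.4% and 46.1% of Runx1 summits, but 12.4% and 10.5% of Ezh2 summits. Gene by gene, the Ezh2 summit was further into the gene than the Runx1 summit in 65.9%, 64.0%, 66.3% and 64.0% of the 724 genes in the 4 pairings, with median offsets of 151.5, 158, 158.5 and 166.5 bp. In 405 genes, or 55.9%, all 4 pairings put Ezh2 further in, and in 187, or 25.8%, all 4 put it further out. Replicates of one antibody showed no such offset, with medians of -2 bp for Runx1 and 1 bp for Ezh2, replicate 2 minus replicate 1. The genes are not all separate observations, because neighbours that share a start count the same summits more than once. Of the 973 genes with both at the same end, 168 shared a Runx1 summit with another gene.

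The order was seen more often among stronger peaks. Using the mean summit of each antibody, the median offset was 172.5 bp over the 724 genes. It was 102.5 bp with windows of 2 kb and 271 bp with the 10000 strongest peaks of each list, with Ezh2 further in under both. With an Ezh2 fold under 3 it was 123.5 bp and Ezh2 was further in at 57.2% of 285 genes, with a fold of 3 to 5 it was 179.5 bp at 66.0% of 215, and with a fold of 5 or more it was 214.8 bp at 73.7% of 224. Where both folds were 5 or more, the offset was 291.5 bp and Ezh2 was further in at 76.2% of 130 genes. Starts with Ezh2 alone also had their median Ezh2 summits inside the gene, at 180 and 150 bp. Starts with Runx1 alone had median Runx1 summits at 4 and -2 bp.

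**Figure D3:**
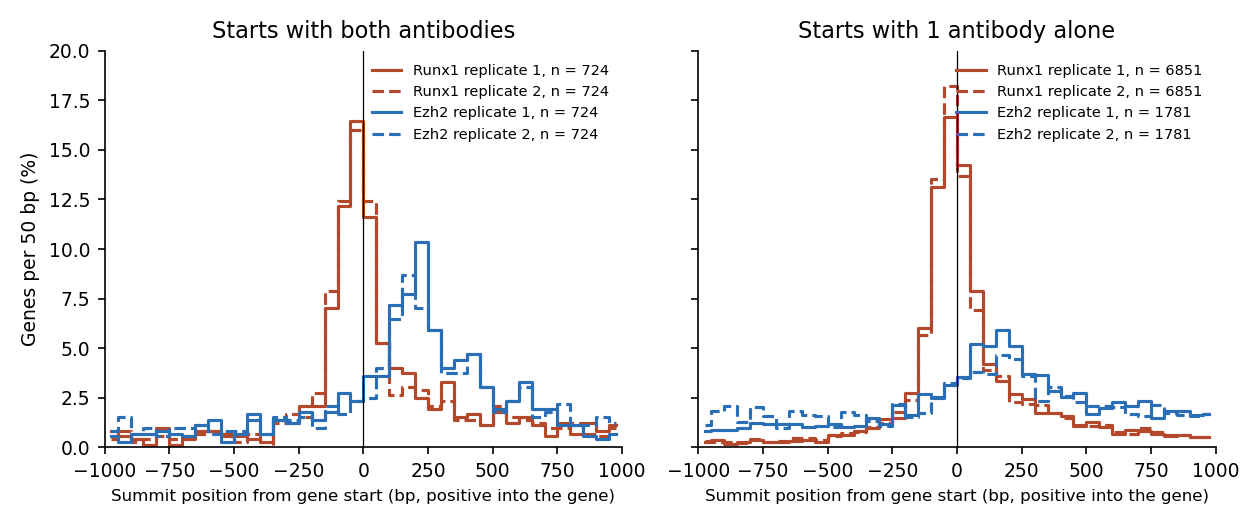
Percentage of genes per 50 bp (vertical axis) by the position of the summit from the gene start in bp (horizontal axis, positive into the gene), for starts with both antibodies (left, 724 genes) and with 1 antibody alone (right). Runx1 summits gather at the start and Ezh2 summits about 200 bp inside the gene, and the replicates, drawn solid and dashed, follow each other.

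Starts with both antibodies were the most GC-rich. Over promoters with a RefSeq entry within 1 kb of the gene start, the median GC content was 67.0% for 673 starts with both, 61.3% for 6463 with Runx1 alone, 56.0% for 1550 with Ezh2 alone and 49.0% for 7066 with neither. The median ratio of observed to expected CpG was 0.790 with both, 0.806 with Runx1 alone, 0.433 with Ezh2 alone and 0.247 with neither. Starts with both thus had a CpG ratio close to that of starts with Runx1 alone. TGTGGT or ACCACA was found in 8.62% of starts with both, 13.2% with Runx1 alone, 13.2% with Ezh2 alone and 17.8% with neither, against 15.0% of all these promoters. TGCGGT or ACCGCA was found in 12.9%, 10.4%, 8.06% and 4.12%, against 7.45% of all. Any of these sequences was found in 20.2%, 22.5%, 20.5% and 21.2% in the same order, against 21.6% of all. The share with any of them thus differed little between the groups. It covers these forms of the motif only. The first motif holds no CpG, the second holds one, and GC content moved with the groups; its part in these shares was not tested.

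Folds at the 973 genes with both at the same end were spread widely. The mean Runx1 fold of the 2 replicates ran between 1.58 and 184 with a median of 6.48, and the mean Ezh2 fold between 1.39 and 83.9 with a median of 3.46. Runx1 had the higher fold at 696 genes, or 71.5%, and its folds were also higher over the whole peak lists. Both folds exceeded 5 at 168 genes and 10 at 20. H3K27me3 was called at that end in 629, or 64.6%.

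**Figure D4:**
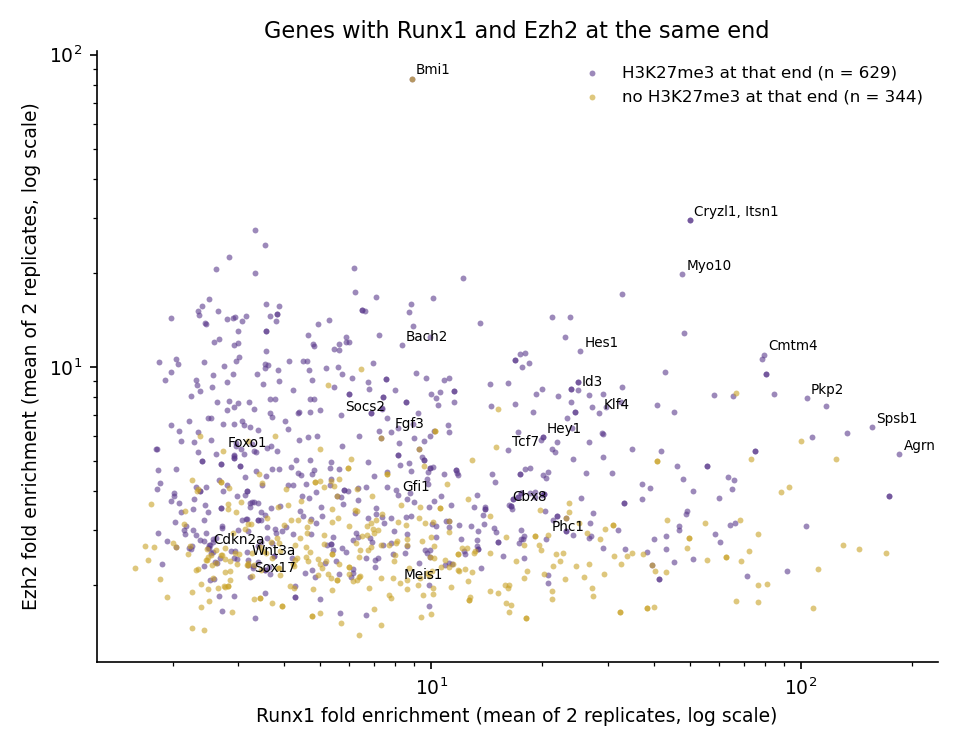
Mean Runx1 fold (horizontal axis, log scale) against mean Ezh2 fold (vertical axis, log scale) at the 973 genes with both antibodies at the same end, coloured by H3K27me3 at that end. Of 294 genes with an Ezh2 fold above 5, 274 carried the mark, and Bmi1 stood highest for Ezh2.

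The 10 strongest genes by the geometric mean of both folds were led by Cryzl1 and Itsn1, neighbours on chromosome 16 (91689300 to 91729206 and 91729310 to 91920591) that share a start region. Itsn1 encodes a scaffold protein of endocytosis. Runx1 folds there were 51.6 and 48.3 in replicates 1 and 2, and Ezh2 folds 35.3 and 23.7. Both antibodies were high in both replicates, and the summits lay 744 to 747 bp apart over the 4 pairings. The Ezh2 summits were 706 and 708 bp inside Itsn1, so upstream of Cryzl1, while Runx1 sat between the starts.

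Spsb1, an adaptor of a ubiquitin ligase on chromosome 4 (149896283 to 149955006), had Runx1 folds of 163 and 148 and Ezh2 folds of 7.08 and 5.78. Agrn, which encodes the matrix proteoglycan agrin (chromosome 4, 156165290 to 156197533), had Runx1 folds of 200.1 and 169 and Ezh2 folds of 6.34 and 4.21. Asap3, a regulator of Arf GTPases (chromosome 4, 136206350 to 136246577), had Runx1 folds of 128 and 106 and Ezh2 folds of 8.81 and 6.25. In these genes the Runx1 folds were the higher ones. Their Runx1 summits lay 41 to 179 bp before the gene start and their Ezh2 summits 191 to 433 bp inside, in every replicate.

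Myo10, an unconventional myosin gene (chromosome 15, 25622550 to 25813673), had Runx1 folds of 48.6 and 46.9 and Ezh2 folds of 24.6 and 15.0. Nkd1, an antagonist of Wnt signalling (chromosome 8, 88521342 to 88594887), had Runx1 folds of 137 and 129.5 and Ezh2 folds of 6.80 and 5.50. Cmtm4 (chromosome 8, 104348191 to 104395807) had Runx1 folds of 92.8 and 65.8 and Ezh2 folds of 12.8 and 9.16. The list was completed by the semaphorin gene Sema3f (chromosome 9) and the desmosome gene Pkp2 (chromosome 16), whose Runx1 folds lay between 72.6 and 116 and Ezh2 folds between 7.44 and 12.6. H3K27me3 was called at that end of all 10. All 10 kept both antibodies at the same end among peaks reaching a q of 0.01, where 2.85% of genes had both there, and at 1e-05, where 1.91% had. The 10 were chosen for high folds of both antibodies, so keeping both calls follows largely from that choice. Of the 8 genes of known direction Cryzl1 was the exception to Ezh2 lying further into the gene.

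Among the 5 strongest genes with the antibodies only at opposite ends, 2 had high folds of both. Brwd1, a bromodomain gene on chromosome 16 (95992089 to 96082703), had Runx1 folds of 32.2 and 27.3 at its other end and Ezh2 folds of 27.1 and 18.4 at its start. Ache, the acetylcholinesterase gene on chromosome 5 (137288247 to 137294466), had Runx1 folds of 18.7 and 17.2 at its other end and Ezh2 folds of 19.4 and 14.9 at its start. At Rgs17, Eif4e1b and 1700008O03Rik Runx1 folds lay between 73.9 and 113 but Ezh2 folds between 1.89 and 5.43. Among peaks reaching a q of 0.01 these 3 genes had Runx1 alone, while Brwd1 and Ache kept both antibodies at opposite ends at 1e-05. Genes with both only at opposite ends had a median length of 27709 bp, against 30422 bp for those with both at the same end and 17169 bp for all genes.

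The gene lists covered 384 genes found in the gene table and were chosen with earlier results of these data known. For each, the members are set beside the background of 4.45% of genes with both at the same end, 40.0% with Runx1 alone and 13.2% with Ezh2 alone. Of all members, 26 had both antibodies at the same end, of which 20 kept both there among peaks reaching a q of 0.01 and 16 at 1e-05. Members of a list can share a gene end with each other or with other genes, and no test was made on the counts.

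**Figure D5:**
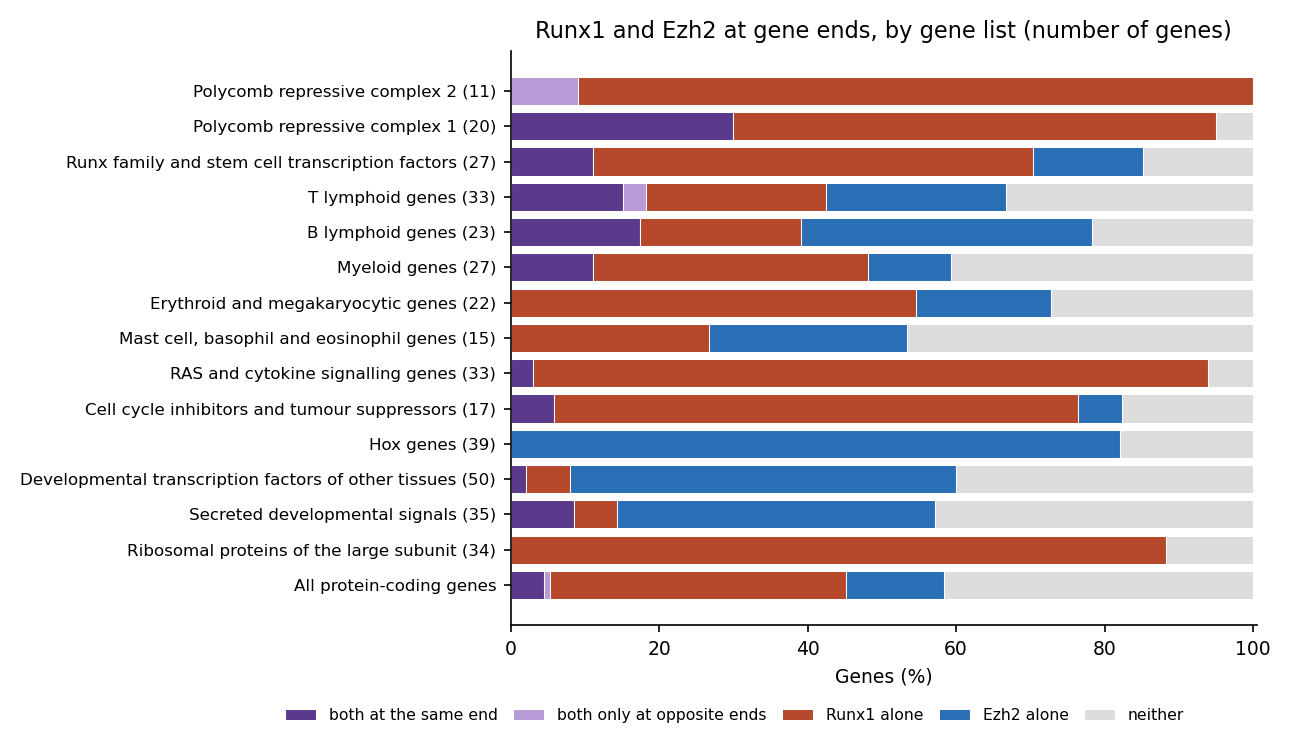
Percentage of genes (horizontal axis) in each gene list, with the number of genes in brackets, that carry both antibodies at the same end, both only at opposite ends, Runx1 alone, Ezh2 alone or neither; the bottom bar gives all protein-coding genes. Hox genes carried Ezh2 without Runx1, and ribosomal protein genes Runx1 without Ezh2.

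The genes of the Polycomb complexes themselves carried mainly Runx1. Of 11 genes of complex 2, which sets the mark, 10 had Runx1 alone and 1 had both only at opposite ends. That was Phf19, an accessory subunit that binds methylated histone H3 (chromosome 2, 34893752 to 34914353), with Runx1 folds of 5.92 and 8.62 at its other end and Ezh2 folds of 7.41 and 6.34 at its start. The accessory subunit gene Phf1 and the histone-binding subunit gene Rbbp7 had the highest folds with Runx1 alone, 28.5 and 27.2 for Phf1 and 22.7 and 16.9 for Rbbp7. Of 20 genes of complex 1, which binds the mark and ubiquitinates histone H2A, 6 had both at the same end, 13 had Runx1 alone and 1 had neither.

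Bmi1, which encodes a ring finger subunit of complex 1 (chromosome 2, 18677018 to 18686629), shared with its neighbour Commd3 the highest Ezh2 folds among the 973 genes. Runx1 folds at Bmi1 were 7.96 and 9.75, and Ezh2 folds 77.4 and 90.4. Its Runx1 summits lay 212 and 263 bp before the start and its Ezh2 summits 844 and 950 bp inside the gene. Phc1, a structural subunit of complex 1 (chromosome 6), had Runx1 folds of 18.3 and 23.1 and Ezh2 folds of 2.38 and 3.41, without H3K27me3. Cbx8, a reader of the mark (chromosome 11), had Runx1 folds of 18.8 and 13.6 and Ezh2 folds of 4.90 and 2.32. In both genes the Runx1 fold was above the Ezh2 fold in each replicate. The ring finger genes Pcgf3, with Runx1 folds of 109 and 85.2, and Rnf2, with 31.5 and 26.1, had Runx1 alone.

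Among 27 genes of the Runx family and of stem cell transcription factors and receptors, 3 had both at the same end, 16 had Runx1 alone, 4 had Ezh2 alone and 4 had neither. Hlf, a stem cell factor gene and leukaemia fusion partner (chromosome 11, 90336535 to 90390917), had Runx1 folds of 21.9 and 21.8 and Ezh2 folds of 6.52 and 4.98. Gfi1, a transcriptional repressor of stem and myeloid cells (chromosome 5, 107716655 to 107725805), had Runx1 folds of 7.35 and 8.94 and Ezh2 folds of 4.34 and 3.44. Meis1, a homeobox partner of Hox proteins, had Runx1 folds of 7.29 and 9.14, but its Ezh2 folds were 1.61 and 2.45 and it had Runx1 alone among peaks reaching a q of 0.01. The Runx1 gene itself had Runx1 alone, with folds of 56.0 and 72.0. Mycn, with Ezh2 folds of 6.85 and 7.29, and Bcl11a, with 7.99 and 4.66, had Ezh2 alone.

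Lymphoid genes were found in every class. Of 33 T lymphoid genes 5 had both at the same end, 1 had both only at opposite ends, 8 had Runx1 alone, 8 had Ezh2 alone and 11 had neither. The 5 were Hes1, Hey1, Tcf7, Notch1 and Cd3e, of which the first 4 belong to or act beside Notch signalling in T cell commitment. Tcf7, a transcription factor that starts the T cell programme (chromosome 11, 52246527 to 52283383), had Runx1 folds of 17.6 and 14.6 and Ezh2 folds of 5.56 and 5.30, with summits 369 to 468 bp apart. Hey1, a Notch target (chromosome 3), had Runx1 folds of 20.7 and 19.4 and Ezh2 folds of 6.34 and 5.60, with summits 241 to 353 bp apart. Their folds were alike in the 2 replicates.

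Hes1, another Notch target (chromosome 16, 30065357 to 30067796), had Runx1 folds of 25.3 in both replicates and Ezh2 folds of 13.0 and 9.51, with the strongest summits 3243 to 3333 bp apart. Several Ezh2 peaks lay around this short gene, 4 in replicate 1 and 3 in replicate 2, and the Ezh2 summit nearest to the strongest Runx1 summit was 2 to 4 bp away in Ezh2 replicate 1 and 362 to 364 bp away in replicate 2, a look made after these values were seen. Notch1 had Runx1 folds of 2.79 and 3.07 and Ezh2 folds of 8.68 and 6.23, with summits 65 to 153 bp apart, and at 1e-05 it had Ezh2 alone. Cd3e lost its Ezh2 call at a q of 0.01. Il2ra, the interleukin 2 receptor gene, had weak Runx1 at its start (2.84 and 2.60) and weak Ezh2 at its other end (2.26 and 3.49), and neither was called among peaks reaching a q of 0.01. Zbtb7b, a regulator of CD4 T cell fate with Runx1 folds of 58.2 and 49.5, and Cd3d, a T cell receptor subunit with 55.6 and 65.7, had Runx1 alone. Lef1, a factor of Wnt signalling with Ezh2 folds of 7.52 and 4.28, and Gata3, a T cell master regulator with 6.68 and 3.65, had Ezh2 alone, though Gata3 had neither at 1e-05.

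Of 23 B lymphoid genes 4 had both at the same end, 5 had Runx1 alone, 9 had Ezh2 alone and 5 had neither. Id3, an inhibitor of E proteins (chromosome 4, 136143822 to 136145392), had Runx1 folds of 25.6 and 24.2 and Ezh2 folds of 10.3 and 6.52, in the order on the promoter printed above. Bach2, a repressor that guards B cell fate (chromosome 4, 32238413 to 32586109), had Runx1 folds of 9.42 and 7.26 and Ezh2 folds of 14.1 and 9.53. Its summits lay 9 to 429 bp apart, because the Ezh2 summits of the replicates were 420 bp from each other. Foxo1 had Runx1 folds of 2.79 and 2.68 and Ezh2 folds of 6.29 and 4.45, without the mark. The B cell receptor subunit gene Cd79a, with Runx1 folds of 7.69 and 8.58, and the kinase gene Btk, with 7.83 and 6.63, had Runx1 alone. Irf8, an interferon regulatory factor with Ezh2 folds of 10.7 and 9.11, and Prdm1, the plasma cell regulator with 6.53 and 4.56, had Ezh2 alone.

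Of 27 myeloid genes 3 had both at the same end, 10 had Runx1 alone, 3 had Ezh2 alone and 11 had neither. Klf4, a zinc finger factor of monocytes (chromosome 4, 55527137 to 55532475), had Runx1 folds of 31.7 and 25.2 and Ezh2 folds of 7.89 and 6.32. Its Ezh2 summits were 601 bp from each other, on either side of the start, and its Runx1 summits 12 bp. Gfi1 also belongs to this list. The third, Cebpb, had folds of 1.95 and 3.02 for Runx1 and 2.95 and 2.32 for Ezh2, and had Ezh2 alone at 1e-05. Spi1, the myeloid factor PU.1, had Runx1 alone with folds of 33.1 and 33.2. Cd14, a receptor of monocytes, had Ezh2 alone with folds of 8.16 and 7.47. No erythroid or megakaryocytic gene of 22 and no mast cell, basophil or eosinophil gene of 15 had both, against 5.23% of all genes. At that share, lists this small would hold few such genes. In the first list 12 genes had Runx1 alone, led by the Gata1 cofactor gene Zfpm1 (157 and 122), and 4 had Ezh2 alone, led by the von Willebrand factor gene Vwf (3.13 and 2.25). In the second 4 had Runx1 alone, led by the mast cell protease gene Cpa3 (15.2 and 25.9), and 4 had Ezh2 alone, where the eosinophil peroxidase gene Epx had folds of 3.62 and 2.27. Neither Vwf nor Epx kept an Ezh2 call among peaks reaching a q of 0.01.

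RAS and cytokine signalling genes carried Runx1 almost throughout, with 30 of 33 having Runx1 alone, 1 both at the same end and 2 neither. The gene with both was Socs2, a feedback inhibitor of cytokine receptors (chromosome 10, 95383903 to 95417321), with Runx1 folds of 5.49 and 5.95 and Ezh2 folds of 7.34 and 6.72 and summits 6 to 215 bp apart. The adaptor gene Sh2b3, with Runx1 folds of 128 and 109.9, and the RAS inhibitor gene Rasa1, with 42.9 and 38.0, led those with Runx1 alone. Of 17 cell cycle inhibitors and tumour suppressors 12 had Runx1 alone, 1 had Ezh2 alone, 3 had neither and 1 had both at the same end. That was Cdkn2a, whose folds were low for Runx1 (2.60 and 2.42) and for Ezh2 (2.90 and 2.37), and its neighbour Cdkn2b had Ezh2 alone with 3.23 and 2.60. At 1e-05 Cdkn2a had Runx1 alone and Cdkn2b neither.

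Developmental genes stood on the side of Ezh2. Of 39 Hox genes 32 had Ezh2 alone, 7 had neither and none had Runx1; the highest Ezh2 folds were those of Hoxc9, 13.6 and 12.1. Of 50 developmental transcription factors of other tissues 26 had Ezh2 alone, 3 had Runx1 alone, 20 had neither and 1, Sox17, had both, with folds of 2.62 and 3.84 for Runx1 and 1.94 and 2.33 for Ezh2. Sox17 had Runx1 alone among peaks reaching a q of 0.01 and neither at 1e-05. Of 35 secreted developmental signals 15 had Ezh2 alone, 2 had Runx1 alone, 15 had neither and 3 had both at the same end. Wnt10b, a Wnt ligand (chromosome 15, 98770712 to 98778206), had Runx1 folds of 22.4 and 21.6 and Ezh2 folds of 9.57 and 6.63, with summits 999 to 1045 bp apart. Fgf3, a fibroblast growth factor (chromosome 7), had Runx1 folds of 8.36 and 7.19 and Ezh2 folds of 8.61 and 3.75, with Runx1 further into the gene than Ezh2. Among list members with both antibodies at the start, Cbx8, Gfi1, Foxo1, Notch1 and Pcgf5 had that order too, in every pairing of replicates. At Bach2, Klf4, Cebpb and Cdkn2a the pairings differed. Ezh2 lay further in at Bmi1, Hlf, Id3, Meis1, Phc1, Tcf7 and Wnt10b. Wnt3a had both at its other end, with folds of 3.36 and 3.02 for Runx1 and 2.36 and 2.48 for Ezh2, but both only at opposite ends among peaks reaching a q of 0.01 and Runx1 alone at 1e-05. Of 34 ribosomal protein genes of the large subunit 30 had Runx1 alone, with the highest folds at Rpl31 (99.6 and 105), and 4 had neither.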

How the data were processed

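ChIP-seq peak lists of Runx1 and Ezh2, 2 replicates each, and of H3K27me3 were used, 1 list per library, so peaks were not pooled. Per the submitters' processing notes, which state no role or parameter, the authors' tools include MACS2 2.0.10, Bowtie2 2.2.1, SAMtools and Picard, and the build is mm10. The deposited fold enrichment is a linear ratio of the authors' peak caller, and each peak's p-value and q-value were deposited as −log10. The deposited score, 10 times one of these, was not used. Summits were read from column 10 of the narrow peak lists, per the file format. Coordinates are those of mm10, counted from 1, and genes, starts and promoter sequences came from RefSeq on GRCm38.p6, a patch release of that build. Of 21887 protein-coding genes 17492 had a strand in the promoter table. For a region, the fold is the highest of the replicate's peaks in it and the summit that of the peak with the smallest p. Where a window held several peaks, the one with the highest fold was used. Named genes were first the 10 with both antibodies at the same end that had the highest geometric mean of folds. The 5 with both only at opposite ends were chosen in the same way. Up to 3 members per list with both at the same end and 2 in each other class were added. Also named were the 5 shared regions away from gene ends with the highest geometric mean. Notch1 and Cd3e complete a count, and Pcgf5 completes a comparison of summit order. Members, lists and rules were chosen with earlier results of these data known. No test was made: 2 libraries against 2 cannot go below an exact permutation p of 0.333, two-sided. The scripts (Python 3.11.15, pandas 2.3.3) were tested on simulated data. Alternatives were stricter peaks, stronger overlap, other windows and leaving out each library. Read depth and input libraries were not analysed here.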

Additional observations from a re-analysis of the deposited data

How the results depend on the processing

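The results below were recomputed with stricter peaks of Runx1 and Ezh2 (reaching a q of 0.01, reaching a q of 1e-05, or the 10000 strongest peaks per list, given in this order), with an overlap of at least 50%, with other windows and without each library, and a value is called moved beyond the SD over the 4 pairings of single lists, or 1.5 times for counts. The share of Runx1 regions touching Ezh2 moved to 2.54% and 2.03% with the q limits, and that of Ezh2 regions touching Runx1 to 9.27%, 24.8% and 7.84%. The median summit distance was 235, 256 and 290 bp, and 163 bp with the 50% overlap. The log2 ratio of Ezh2 folds in shared against separate regions was 0.25, 0.055 and 0.098, and 0.24 with the 50% overlap; that of Runx1 was -0.046 with all peaks and changed sign to 0.071 with the 10000 strongest peaks. Marked shared regions made up 73.9%, 77.0% and 73.0%, and 14.6% with H3K27me3 peaks reaching a q of 0.01, where 0.0972% of separate Runx1 regions were marked; with the 10000 strongest peaks 2.41% of these were. Shared regions at gene ends made up 58.5%, 63.3% and 70.5%, and 49.6% and 35.0% with windows of 2 kb and 500 bp. Genes with both at the same end numbered 624, 418 and 265, and those with both only at opposite ends 63, 33 and 20, with 332 and 96 for windows of 2 kb and 500 bp. The offset of Ezh2 from Runx1 at gene starts was 198.75, 239.5 and 271 bp, and 102.5 bp with windows of 2 kb. The offset and the marked percentage of separate regions were added after the data were seen. The cause of these moves was not tested; stricter limits leave fewer peaks.

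Leaving out each Runx1 or Ezh2 replicate in turn, so that 1 list stood for the antibody, gave 3.82% to 6.79% of Runx1 regions touching Ezh2, 1.49% to 4.63% of Ezh2 regions touching Runx1, a summit distance of 139 to 178 bp, log2 fold ratios of -0.16 to -0.019 for Runx1 and 0.061 to 0.15 for Ezh2, 55.9% to 75.9% of shared and 2.95% to 7.41% of separate Runx1 regions marked, 29.2% to 37.0% of shared regions at gene ends, 1053 to 1405 genes with both at the same end, 209 to 255 with both only at opposite ends, and an offset of 137.5 to 172 bp at gene starts. Without Ezh2 replicate 2 the share of Runx1 regions was 6.79% and that of Ezh2 regions 1.73%; without Ezh2 replicate 1 the share of Ezh2 regions was 1.49%, and without Runx1 replicate 2 it was 4.63%, each over 1.5 times from the value with all lists. Without Runx1 replicate 2, 7.41% of separate Runx1 regions were marked. Of 96 recomputed values 35 did not move, 60 moved in size and 1 changed sign. The 4 pairings behind the SD reuse the same lists, and their values can differ in level from those of merged regions. Their SD is therefore a yardstick and no measure of error around the values with all lists. No paired analysis was possible because no result comes from a test and replicate numbers are only numbers here. The number of libraries limits all values, and the depth behind each peak is unknown.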
